A study of Mus musculus with 2 samples.

Results

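The 38 genes described here encode lysosomal proteases, their inhibitors, lysosomal membrane proteins, hydrolases, regulators and subunits of the proton pump that acidifies the compartment. They were chosen by name, and each matched 1 of the 55487 gene rows of the count table. The RNA came from Langerhans cells, dendritic cells that survey the epidermis, which were sorted from digested ears of HTR2A-/- mice as CD207+ and MHC II+ cells. After the sort the cells were cultured for 24 hours with imiquimod, an agonist of Toll-like receptor 7, and with an agent labelled a-CD40L. Both samples belong to this single group and carry the same genotype and treatment, and wild-type or untreated cells were not analysed here. The strain, age and number of mice behind a sample, and the part of the receptor gene that was deleted, are not stated by the labels. The title of the series calls the cells monocyte-derived, while the protocol describes cells sorted from ear.

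Library 2 carries the replicate number 2 in its name and held 42264685 counts. Library 1 carries no number and held 69925160 counts. The targeted gene Htr2a had 77 counts in library 1 and 117 in library 2, at percentiles 44.5 and 33.4 of olfactory receptor genes per kb of exon, which puts it within background. Olfactory receptor genes served as background because most tissues do not use them, yet they carried counts here. Levels are in CPM, counts scaled to the total of the library, and per kb of exon where genes are compared. Background ended at the 95th percentile of these 1135 genes, at 0.761 CPM per kb in library 1 and 1.58 in library 2, and only genes past it in each library counted as above. The labelled cell type was visible in its markers: Cd207, which encodes langerin, was at 739 CPM per kb in library 1 and 691 in library 2, and 9 of 10 Langerhans cell genes were above background. Keratinocyte genes were present too. Of that list 13 of 14 genes were above background, none was at 0, and its summed level was 4872 CPM in library 1 against 16510 in library 2.

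Lysosomes are acidic compartments in which proteins, lipids and sugars taken up by a cell are degraded. In antigen-presenting cells, cysteine and aspartic proteases of this pathway cut the invariant chain and foreign proteins into peptides for MHC class II, and cystatins restrain the cysteine proteases. The vacuolar proton pump (V-ATPase) supplies the acid that these enzymes need, and the transcription factors TFEB and TFE3 drive many lysosomal genes by binding a short palindrome in their promoters.

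Most of the pathway was expressed. The median log2 ratio of library 1 over library 2 was 1.78 over the 5 hydrolases and cofactors, 0.83 over the 10 cysteine cathepsins, 0.48 over the 5 membrane glycoproteins and 0.33 over the 4 V-ATPase genes, after TMM scaling (a scaling that assumes most genes do not differ). Of the 38 genes, 35 were above background in both libraries, against 47.3% of 21974 protein-coding genes. The exceptions were Ctse, Lamp3 and Atp6v0d2. Together the 38 genes took 0.692% of all counts in library 1 (95% exact binomial interval 0.690 to 0.694) and 0.391% in library 2 (0.389 to 0.393). These and all other intervals cover counting error only. Their order by level was similar in both libraries, with a Spearman rho of 0.967 across the 38 genes, which share the 2 libraries and are not independent replicates.

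**Figure D1:**
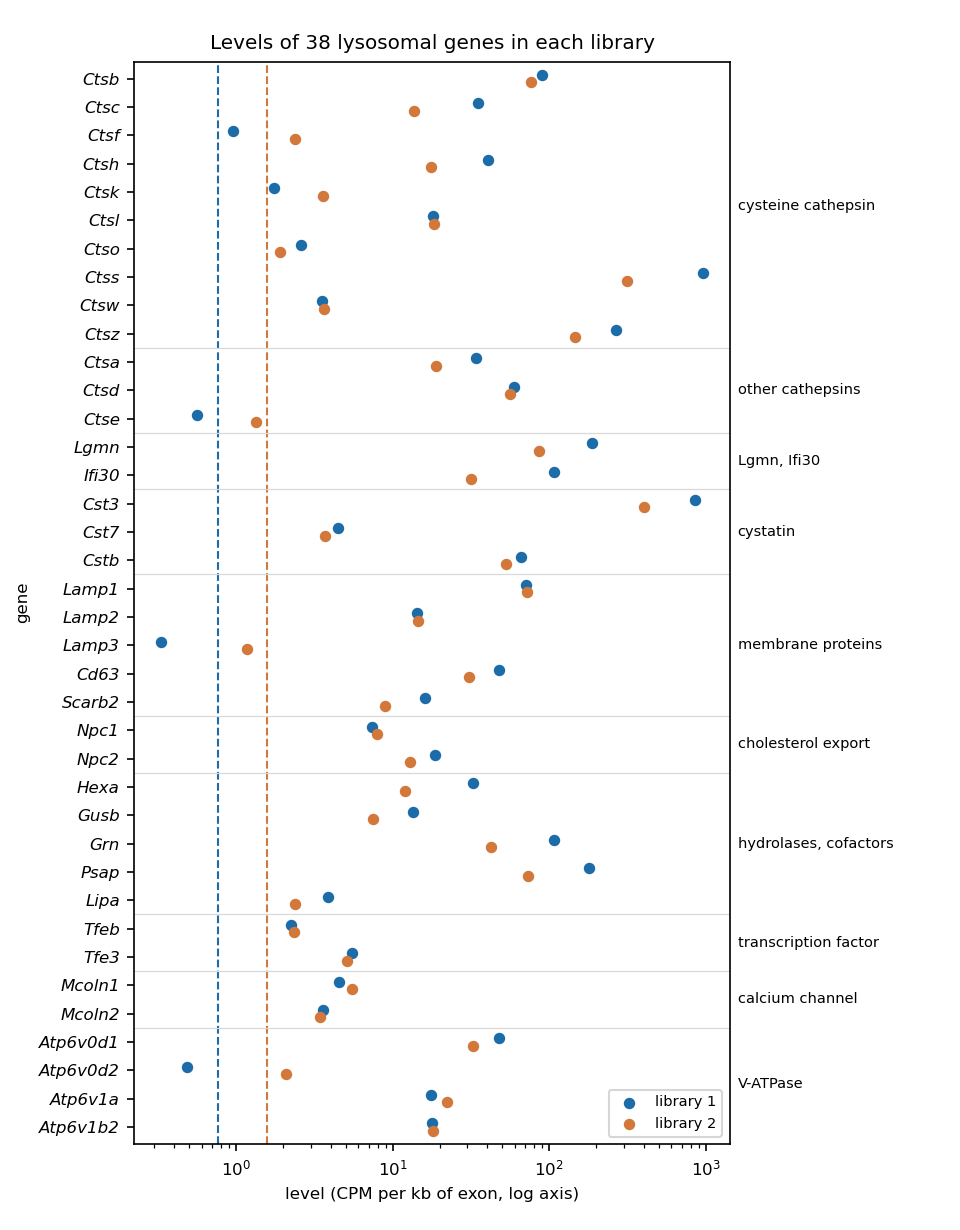
Level of each of the 38 genes in CPM per kb of exon on a log axis, with 1 point per library, grouped by role from top to bottom; dashed lines mark the 95th percentile of olfactory receptor genes in the library of the same colour. Ctss and Cst3 sit at the right in both libraries, while Ctse and Lamp3 lie left of both lines and Atp6v0d2 left of the line of library 1.

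Cathepsin S dominated the cysteine proteases. Ctss (ENSMUSG00000038642, GRCm38 chr3:95526786-95556403, plus strand), the protease that removes most of the invariant chain in antigen-presenting cells, had 1295 CPM in library 1, with a 95% Poisson interval of 1287 to 1303, against 429 CPM in library 2, with 423 to 435. The mean was 862 ± 612 CPM (SD, n = 2), so the spread was large. Per kb of exon it stood at 954 CPM in library 1 and 316 in library 2, rank 12 and rank 74 among protein-coding genes. It supplied 67.5% of the summed level per kb of the 10 cysteine cathepsins in library 1 and 52.7% in library 2. Ctsz, a carboxypeptidase also called cathepsin X, came next at 267 CPM per kb in library 1 and 146 in library 2, and Ctsb, a broad protease with both endo- and exopeptidase activity, followed at 89.6 and 76.5 CPM per kb. Ctsl, the cathepsin of invariant chain cleavage in the thymic epithelium, was at 18.2 CPM per kb in library 1 and 18.4 in library 2. By total counts the libraries thus gave nearly the same level of Ctsl and unlike levels of Ctss. After TMM scaling Ctsl was 1.39-fold higher in library 1.

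The other cysteine cathepsins ranged over more than an order of magnitude. Ctsh, an aminopeptidase, was at 40.3 CPM per kb in library 1 and 17.6 in library 2, and Ctsc, which activates granule serine proteases, at 35.2 and 13.7 CPM per kb. Both were higher in library 1. Ctsw, a protease of cytotoxic lymphocytes, was at 3.55 CPM per kb in library 1 and 3.61 in library 2. Ctso was at 2.58 and 1.91 CPM per kb, close to the background limit of 1.58 in library 2. Of 12 T cell and cytotoxic lymphocyte markers 8 were above background, and their summed level was 236 CPM in library 1 against 132 in library 2. The part of such cells in the level of Ctsw was not tested. Ctsk and Ctsf were close to background: Ctsk, the collagen-cutting protease of osteoclasts, was at 1.74 CPM per kb in library 1 and 3.57 in library 2, and Ctsf at 0.948 and 2.39 CPM per kb. Both were higher in library 2, as was the median olfactory receptor gene, at 0.221 CPM per kb in library 1 and 0.645 in library 2.

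Ctss and its relative Ctsk are neighbours on chromosome 3, 17423 bp apart with no protein-coding gene between them, and their levels were far apart. The level of Ctsk per kb was 0.00182 of that of Ctss in library 1 (95% interval 0.00157 to 0.00211) and 0.0113 in library 2 (0.00986 to 0.0129). Their promoters (RefSeq, GRCm38.p6, 250 bases before to 50 after the start site, plus strand) are shown because the pair is adjacent but so unequal. Capitals mark matches to GAGGAAGT, a purine-rich ETS-type sequence of the kind bound by PU.1, on either strand, or to CACGTG.
Ctss chr3:95526536-95526835: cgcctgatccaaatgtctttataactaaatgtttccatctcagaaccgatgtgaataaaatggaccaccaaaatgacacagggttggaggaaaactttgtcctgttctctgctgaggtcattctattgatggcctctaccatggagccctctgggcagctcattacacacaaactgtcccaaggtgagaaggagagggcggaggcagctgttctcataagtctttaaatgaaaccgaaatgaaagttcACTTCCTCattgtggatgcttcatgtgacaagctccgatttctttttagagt
Ctsk chr3:95498960-95499259: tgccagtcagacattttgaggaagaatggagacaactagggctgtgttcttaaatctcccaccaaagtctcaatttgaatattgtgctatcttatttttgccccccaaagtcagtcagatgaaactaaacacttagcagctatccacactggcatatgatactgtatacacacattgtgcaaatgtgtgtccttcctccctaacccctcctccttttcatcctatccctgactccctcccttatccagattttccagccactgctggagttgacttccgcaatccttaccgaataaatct
The Ctss promoter held 1 match on the minus strand, starting 2 bases before the start site, and the Ctsk promoter held none. Of 27025 genes with RefSeq promoters 3.69% had a promoter of this length that held it on either strand. Ctsc and Gusb were the other members with a match, so 3 of the 30 members that have an entry in the promoter table held one.

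Among the cathepsins of other classes, the aspartic protease Ctsd led and its relative Ctse was within background. Ctsd, the main aspartic protease of lysosomes, was at 59.4 CPM per kb in library 1 and 56.2 in library 2, or 57.8 ± 2.26 (SD, n = 2). Ctsa, a serine carboxypeptidase that also protects other lysosomal enzymes, was at 33.9 CPM per kb in library 1 and 18.8 in library 2. Ctse, an endosomal aspartic protease, was at 0.564 CPM per kb in library 1 and 1.34 in library 2, at percentiles 89.5 and 90.4 of olfactory receptor genes, so that it was not detectable above background. Exons of Ctsd overlap over 34.4% of their length with those of Gm49369, which was listed at 0 counts in both libraries, and how the counting divided such reads is not stated by the labels.

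Legumain and the thiol reductase GILT were abundant and both were higher in library 1. Lgmn, an asparagine-specific protease that activates cathepsins, was at 188 CPM per kb in library 1 and 85.8 in library 2. Ifi30 (ENSMUSG00000031838, GRCm38 chr8:70762774-70766663, minus strand, annotated as a processed transcript), the gene of GILT, which reduces disulfide bonds of antigens before they are cut, was at 107 CPM per kb in library 1 and 31.5 in library 2. Its counts were 4.83 times as high in library 1 after TMM scaling (95% interval 4.55 to 5.13), the largest fold of the 38 genes in that direction.

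Cystatin C was by far the most abundant protease inhibitor of the list. Cst3 (ENSMUSG00000027447, GRCm38 chr2:148871722-148875692, minus strand), a secreted inhibitor of cysteine cathepsins, had 1079 CPM in library 1 against 508 in library 2, which is 852 and 401 CPM per kb. This placed it at rank 16 and rank 54 among protein-coding genes, close to Ctss. Per kb, Ctss exceeded Cst3 1.12 times in library 1 (95% interval 1.11 to 1.13) and lay below it in library 2, at 0.787 of it (0.772 to 0.803). With the length of the principal annotated transcript in place of all exons, Ctss was at 0.762 of Cst3 in library 1 and 0.536 in library 2, and which gene led in library 1 depended on the length used. Cstb, a cytosolic inhibitor, was at 65.8 CPM per kb in library 1 and 52.9 in library 2, and Cst7, cystatin F, which restrains cathepsin C in cytotoxic and myeloid cells, at 4.48 and 3.67 CPM per kb.

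Lamp1 and Lamp2 were at like levels in both libraries by total counts, while Cd63 and Scarb2 were higher in library 1. Lamp1, a heavily glycosylated coat protein, was at 71.5 CPM per kb in library 1 and 72.5 in library 2, and its relative Lamp2, which also takes part in chaperone-mediated autophagy, at 14.2 and 14.5 CPM per kb. The ratio of Lamp1 to Lamp2 per kb was 5.03 in library 1 (95% interval 4.90 to 5.17) and 5.01 in library 2 (4.84 to 5.18), and the ratio of these ratios, library 1 over library 2, was 1.00 (0.963 to 1.05). With the principal transcripts the ratio was 2.28 in library 1 and 2.27 in library 2. Cd63, a tetraspanin of late endosomes, was at 47.4 CPM per kb in library 1 and 30.8 in library 2, and Scarb2, the receptor that carries glucocerebrosidase to lysosomes, at 16.1 and 8.96 CPM per kb. Lamp3, a marker of mature dendritic cells in humans, was at 0.332 CPM per kb in library 1 and 1.16 in library 2, within background in each. Of 12 mature dendritic cell markers, by contrast, 10 were above background, with a summed level of 3434 CPM in library 1 against 1006 in library 2.

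Genes of lipid and sugar breakdown were expressed throughout. Psap, the precursor of the saposins that present sphingolipids to their hydrolases, was at 178 CPM per kb in library 1 and 73.6 in library 2. Grn, the gene of progranulin, a secreted protein that is cut to granulins in lysosomes, was at 107 CPM per kb in library 1 and 42.3 in library 2. The pair differed alike between the libraries: the ratio of Grn to Psap per kb was 0.598 in library 1 and 0.575 in library 2, and the ratio of these ratios was 1.04 (95% interval 1.00 to 1.08). Hexa, the alpha subunit of β-hexosaminidase, was at 32.6 CPM per kb in library 1 and 11.9 in library 2, Gusb, β-glucuronidase, at 13.4 and 7.43, and Lipa, lysosomal acid lipase, at 3.83 and 2.38 CPM per kb. All 5 were at least 2-fold higher in library 1 after TMM scaling, against 12.6% of all genes tested and 20.7% of protein-coding genes above background. By total counts Gusb and Lipa fell short of 2-fold, with log2 ratios of 0.85 and 0.69. Of the cholesterol exporters, the soluble carrier Npc2 was at 18.5 CPM per kb in library 1 and 12.8 in library 2, and its membrane partner Npc1 at 7.35 and 7.95 CPM per kb, so the ratio of Npc2 to Npc1 was 2.51 (2.43 to 2.60) and 1.61 (1.54 to 1.69).

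Regulators and ion channels were at modest levels that differed little between the libraries by total counts. Tfe3 was at 5.51 CPM per kb in library 1 and 5.11 in library 2, and Tfeb at 2.23 and 2.35 CPM per kb. Mcoln1, the calcium channel of lysosomes whose opening activates TFEB, was at 4.52 CPM per kb in library 1 and 5.52 in library 2, and its relative Mcoln2 at 3.58 and 3.44 CPM per kb. All 4 were above background. The ratio of Tfeb to Tfe3 per kb was 0.405 in library 1 (95% interval 0.376 to 0.436) and 0.460 in library 2 (0.418 to 0.506).

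The promoters of the members were searched for CACGTG, the core of the site that TFEB and TFE3 bind and for its longer palindrome TCACGTGA, which contains it, on both strands. CACGTG was in the promoters of 11 of the 30 members with an entry, against 8.09% of 27025 genes in the table. TCACGTGA was in 6 of 30, against 1.12% of genes. The 6 genes with TCACGTGA were Atp6v0d1, Atp6v1a, Ctsa, Ctsd, Ifi30 and Mcoln1. Their log2 ratios of library 1 over library 2 spanned 0.16 for Atp6v1a to 2.27 for Ifi30. A match describes the letters only, and members without an entry were Atp6v0d2, Atp6v1b2, Cstb, Ctsb, Ctse, Ctsh, Ctsw and Npc1. The sequences of 3 members are given: Lamp1, which held 4 copies of CACGTG, Ctsa, which held 2 copies of TCACGTGA in the second of its annotated promoters, and Ifi30, which had the largest ratio; capitals mark these matches.
Lamp1 chr8:13158911-13159210 (plus strand): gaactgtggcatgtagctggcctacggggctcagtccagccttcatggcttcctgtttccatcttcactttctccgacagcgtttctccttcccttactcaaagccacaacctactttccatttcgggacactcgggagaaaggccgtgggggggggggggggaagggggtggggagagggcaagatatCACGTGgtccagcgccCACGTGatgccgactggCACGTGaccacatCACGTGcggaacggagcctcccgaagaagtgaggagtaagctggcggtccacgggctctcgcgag
Ctsa chr2:164833523-164833822 (plus strand): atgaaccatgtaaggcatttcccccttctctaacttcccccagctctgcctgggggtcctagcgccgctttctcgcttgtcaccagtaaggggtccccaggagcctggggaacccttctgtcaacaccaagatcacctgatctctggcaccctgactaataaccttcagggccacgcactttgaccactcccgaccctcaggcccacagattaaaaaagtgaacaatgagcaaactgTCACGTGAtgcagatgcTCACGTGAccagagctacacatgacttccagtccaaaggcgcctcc
Ifi30 chr8:70766614-70766913 (minus strand): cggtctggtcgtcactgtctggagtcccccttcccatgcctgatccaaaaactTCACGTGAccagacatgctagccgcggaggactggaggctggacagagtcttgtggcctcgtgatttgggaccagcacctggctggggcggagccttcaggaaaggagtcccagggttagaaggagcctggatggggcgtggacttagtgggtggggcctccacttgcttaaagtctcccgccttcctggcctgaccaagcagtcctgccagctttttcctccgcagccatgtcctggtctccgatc

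The common subunits of the proton pump were above background in both libraries, and the variant d subunit in library 2 only. Atp6v0d1, the widely used d subunit of the membrane sector, was at 48.0 CPM per kb in library 1 and 32.6 in library 2. The catalytic subunit gene Atp6v1a was at 17.6 CPM per kb in library 1 and 22.3 in library 2, and Atp6v1b2, its partner in the ATP-binding ring, at 17.9 and 18.0 CPM per kb. Atp6v0d2, the d subunit of osteoclasts and some macrophages, had 92 counts in library 1 and 239 in library 2, or 0.484 and 2.08 CPM per kb. It lay within background in library 1 and above it in library 2, at percentiles 85.3 and 98.3 of olfactory receptor genes. Its level was 0.0101 of that of Atp6v0d1 in library 1 (95% interval 0.00812 to 0.0124) and 0.0638 in library 2 (0.0556 to 0.0729). Of 7 markers of osteoclast-like macrophages 4 were above background in both libraries, with a summed level of 238 CPM in library 1 against 102 in library 2, the opposite direction to Atp6v0d2 and Ctsk.

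**Figure D2:**
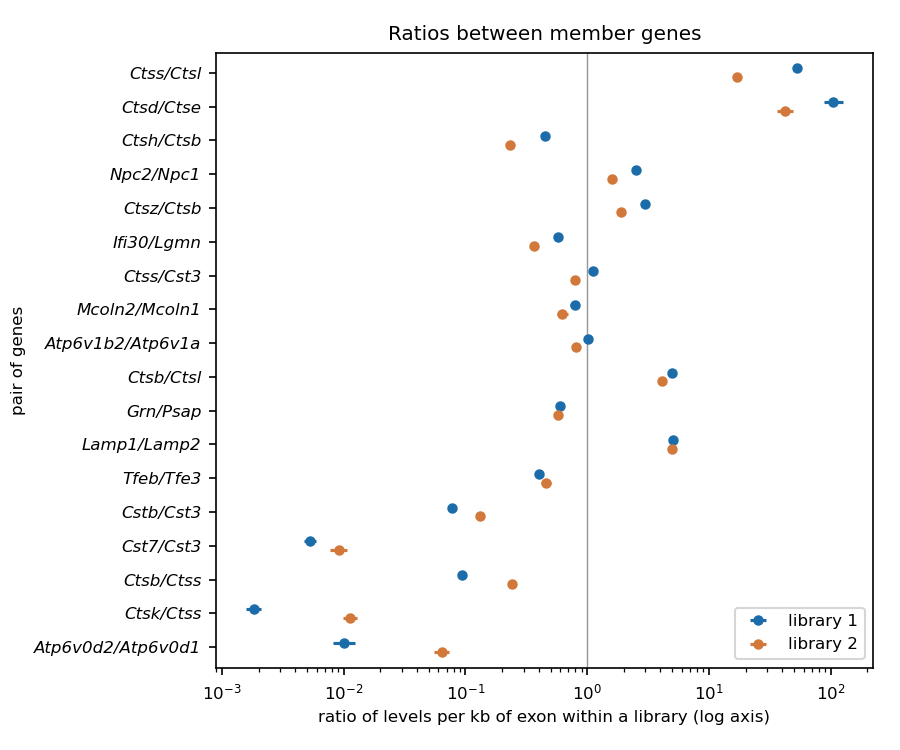
Ratio of the levels per kb of exon of 18 pairs of member genes within library 1 and within library 2, on a log axis, with 95% intervals for counting error that are often smaller than the points. Lamp1/Lamp2 and Grn/Psap nearly coincide between the libraries, whereas Ctss/Ctsl stands at 52.5 in library 1 and 17.1 in library 2.

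Ratios within a library do not depend on how the libraries are scaled, and they showed that the balance of proteases differed between the replicates. Ctss exceeded Ctsl 52.5 times per kb in library 1 (95% interval 51.3 to 53.7) and 17.1 times in library 2 (16.6 to 17.7). In plain counts the same ratio was 10.99 in library 1 and 3.59 in library 2, since the annotated exons of Ctsl add up to 6489 bp and those of Ctss to 1358 bp. Ctsb stood at 0.0940 of Ctss per kb in library 1 (0.0928 to 0.0951) and 0.242 in library 2 (0.237 to 0.247). Ctsh stood at 0.450 of Ctsb in library 1 and 0.230 in library 2, or 0.982 and 0.502 with the principal transcripts. Ctsz exceeded Ctsb 2.97 times in library 1 and 1.91 times in library 2, and Ctsb exceeded Ctsl 4.93 and 4.15 times. Ctsd exceeded Ctse 105 times in library 1 and 42.1 times in library 2, but Ctse was within background. The ratio of Ifi30 to Lgmn was 0.571 in library 1 and 0.367 in library 2.

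Some pairs shifted the other way or by less. Relative to Cst3, Cstb stood at 0.0772 in library 1 and 0.132 in library 2, and Cst7 at 0.00526 and 0.00915. Mcoln2 stood at 0.790 of Mcoln1 in library 1 and 0.623 in library 2, or 0.285 and 0.225 with the principal transcripts. Atp6v1b2 and Atp6v1a were at a ratio of 1.02 per kb of exon in library 1 (95% interval 0.983 to 1.05) and 0.807 in library 2 (0.774 to 0.840). By this length their difference was within counting error in library 1 and beyond it in library 2. With the principal transcripts the ratio was 1.34 in library 1 and 1.06 in library 2, so which gene led in library 2 depended on the length used.

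Set against each other after TMM scaling, the libraries differed in every member beyond counting error, as did 80.2% of all genes tested and 87.8% of protein-coding genes above background. The edgeR binomial test with Benjamini-Hochberg adjustment called 33 members higher and 5 lower in library 1. Of all 30373 genes tested it called 36.1% higher and 44.2% lower in library 1, and of 10385 protein-coding genes above background 65.7% and 22.0%. This test compares 2 libraries of the same group, not conditions. All 38 members passed the filter of 1 CPM in at least 1 library. The size of the difference separated the members where the test did not: 17 were higher in library 1 by 2-fold or more, and 2 were lower by as much. Among all genes tested 12.6% and 24.5% were, and among protein-coding genes above background 20.7% and 4.95%. The median log2 ratio of library 1 over library 2 was 0.80 over the members, -0.15 over all genes tested and 0.43 over protein-coding genes above background. TMM scaling raised every log2 ratio by about 0.50 relative to total counts. By total counts, 24 members were higher and 14 lower in library 1, with 9 higher and 5 lower by 2-fold or more, against 5.48% and 38.6% of all genes tested. Per count of the sort marker Cd207, a scaling chosen after the data were seen, 22 were higher and 16 lower, with 8 higher and 5 lower by 2-fold or more, against 4.63% and 41.7% of all genes tested. An exact test at a dispersion of 0.04 called the 19 members past 2-fold, and 33.6% of all genes tested.

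**Figure D3:**
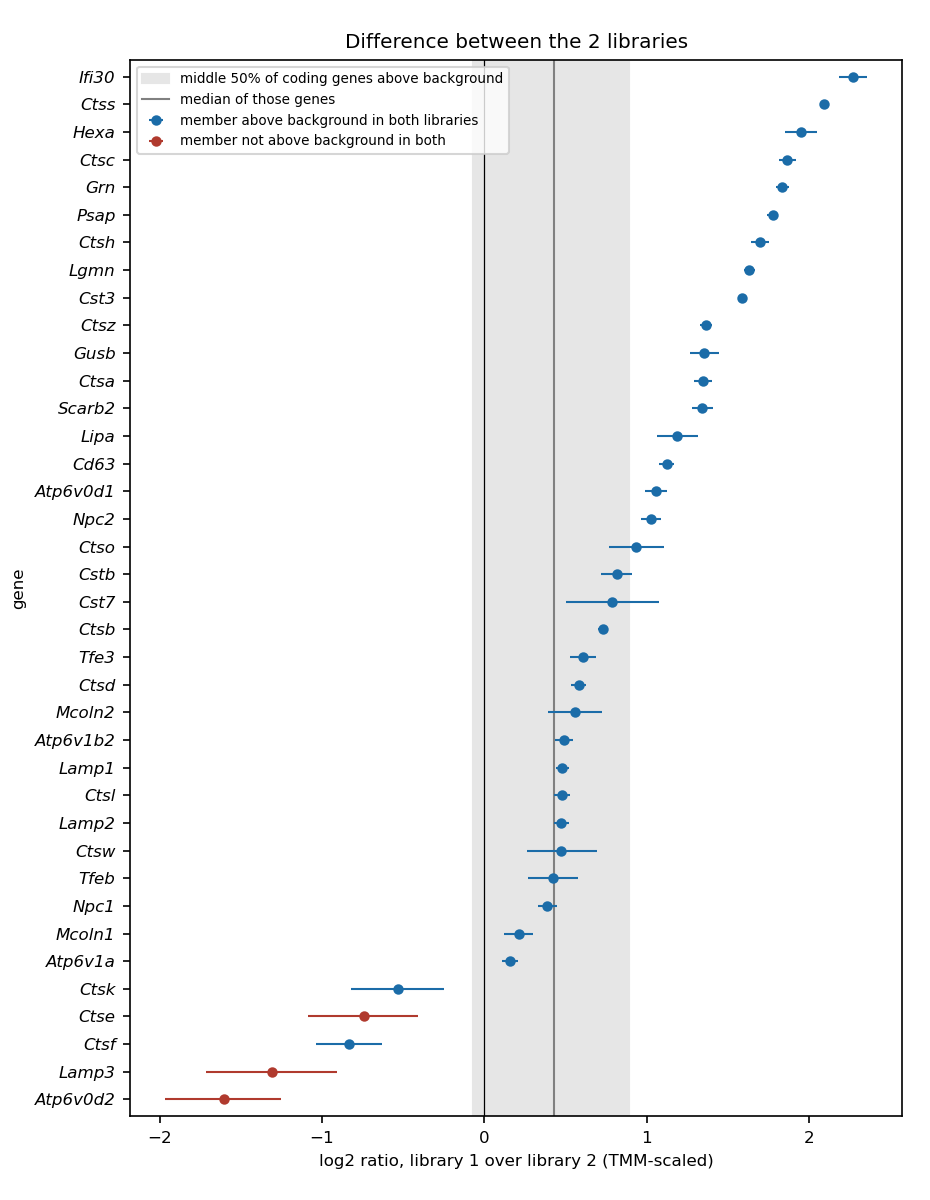
Log2 ratio of library 1 over library 2 after TMM scaling for each of the 38 genes, ordered by ratio, with 95% intervals for counting error; the grey band spans the middle 50% of protein-coding genes above background and the grey line is their median of 0.43. The points from Ifi30 to Ctso lie right of the band, and those of Lamp1, Lamp2, Ctsl and Tfeb lie near its median. The 5 negative values belong to genes close to or within background, but Ctso, Tfeb and Lipa, with positive values, also lie close to background in library 2.

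Members differed widely in their ratios. Those above a log2 ratio of 1.5 were Ifi30 (2.27), Ctss (2.09), Hexa (1.95), Ctsc (1.87), Grn (1.83), Psap (1.78), Ctsh (1.70), Lgmn (1.63) and Cst3 (1.59). For Ctss this was a 4.27-fold difference (95% interval 4.20 to 4.34). The adjusted p of each of these in the binomial test was too small to be represented. All 9 remained at or above 0.99 per count of Cd207, where Ifi30 had 1.67 and Cst3 0.99. Between 1 and 1.5 lay Ctsz (1.37), Gusb (1.36), Ctsa (1.35), Scarb2 (1.34), Lipa (1.19), Cd63 (1.12), Atp6v0d1 (1.06) and Npc2 (1.03). Ctsa shares 10.5% of its exon length with Pltp on the opposite strand, which had 7925 counts in library 1 and 1315 in library 2. Ctsb shares 12.8% of its exon length with Fdft1, also on the opposite strand, which had 6355 counts in library 1 and 4361 in library 2. Without knowledge of the strand setting the reads of these genes cannot be told apart. In all, exons of 11 members overlap those of another gene.

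A further 13 members, among them both transcription factors, both calcium channels and the main LAMP genes, had ratios from 0.16 to 0.73. Ratios were 0.73 for Ctsb, 0.61 for Tfe3, 0.58 for Ctsd, 0.56 for Mcoln2, 0.49 for Atp6v1b2, 0.48 for Lamp1 and Ctsl, 0.47 for Lamp2 and Ctsw, 0.42 for Tfeb, 0.39 for Npc1, 0.21 for Mcoln1 and 0.16 for Atp6v1a. Of these 13 genes, Ctsb and Tfe3 alone kept a positive sign per count of Cd207, at 0.13 and 0.011. The inhibitors Cstb and Cst7 had 0.82 and 0.78, and Ctso 0.93. Negative ratios were those of Ctsk (-0.53), Ctse (-0.74), Ctsf (-0.83), Lamp3 (-1.29) and Atp6v0d2 (-1.59), and background itself was higher in library 2. For Ctsk the edgeR binomial test gave an adjusted p of 0.000317 with 184 counts in library 1 and 228 in library 2. Fewer cells of a type and less RNA per cell cannot be told apart in such bulk samples.

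Further genes of the same compartment were taken from lists of named genes. Their largest and smallest ratios are given for genes that averaged 10 CPM or more. Ratios and 2-fold counts of these lists are after TMM scaling, where 12.6% of all genes tested were at least 2-fold higher and 24.5% lower in library 1. Of 32 other lysosomal hydrolases 30 were above background and 21 at least 2-fold higher in library 1, with none at least 2-fold lower and a median log2 ratio of 1.27. Plbd1, a phospholipase B-like protein, had the highest level of this list, at 49.1 CPM per kb in library 1 and 54.4 in library 2. Smpd1, acid sphingomyelinase, had the smallest log2 ratio at that level, -0.48. Of 21 other V-ATPase genes 15 were above background, 3 were higher and 2 lower in library 1 by 2-fold or more, and the median was 0.81. At a mean of 10 CPM or more, Tcirg1, the a3 subunit, had the largest ratio, with 14.8 CPM per kb in library 1 and 4.80 in library 2 (log2 ratio 2.13), and Atp6v1h the smallest, with 8.02 and 9.26 CPM per kb (0.29). Atp6v1g1 and Atp6v0c had the highest levels of the pump, at 57.8 and 54.9 CPM per kb in library 1 and 42.4 and 37.5 in library 2.

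Of 24 other membrane genes 18 were above background, 6 higher and 1 lower in library 1 by 2-fold or more, with a median of 0.49. Laptm5, a lysosomal protein of blood cells, was at 141 CPM per kb in library 1 and 51.7 in library 2, and Cd68, a macrophage relative of the LAMP proteins, at 81.0 and 63.5 CPM per kb. Slc11a1, a metal transporter of phagosomes, had the largest ratio at 10 CPM or more (2.50), and Clcn7, the chloride-proton exchanger, had -0.05 and was not called by the edgeR binomial test (adjusted p = 0.202). Of 15 genes that sort enzymes to lysosomes all were above background, 6 were at least 2-fold higher in library 1 and the median was 0.80. Rab7, the GTPase of late endosomes, led with 75.9 CPM per kb in library 1 and 52.4 in library 2, followed by the mannose 6-phosphate receptor gene M6pr at 52.7 and 32.7 CPM per kb. Gnptab, which makes the mannose 6-phosphate tag, had the largest ratio (1.97) and Gga3 the smallest (0.32) at that level. Of 19 genes around TFEB and mTORC1, 17 were above background and 2 at least 2-fold higher, and the median was 0.59. Where the mean was 10 CPM or more the ratios ran from 0.21 for Rheb to 0.93 for Ppp3ca. Fnip1 and Rragc were the most abundant of these, both at 19.7 CPM per kb in library 1 and at 19.0 and 18.5 in library 2.

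Protease inhibitors outside the members had another balance. Of 14 such genes 8 were tested and all 8 were above background, with 2 higher and 2 lower in library 1 by 2-fold or more and a median of -0.37. Serpinb9, the inhibitor of granzyme B, was at 45.6 CPM per kb in library 1 and 23.2 in library 2 (log2 ratio 1.47). Stfa3, a stefin, was at 27.5 CPM per kb in library 1 and 38.3 in library 2, with a ratio of 0.022 (adjusted p = 0.797 in the edgeR binomial test), and Serpinb3a, a serpin of epithelia, at 3.08 and 11.3 CPM per kb (-1.37). Of the 10 placental and other cathepsins none was above background, and Ctsg, the most abundant, had 53 counts in library 1 and 61 in library 2. Ctsj had 0 counts in library 1 and 55 in library 2, and 9 of the 10 were at 0 in at least 1 library.

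**Figure D4:**
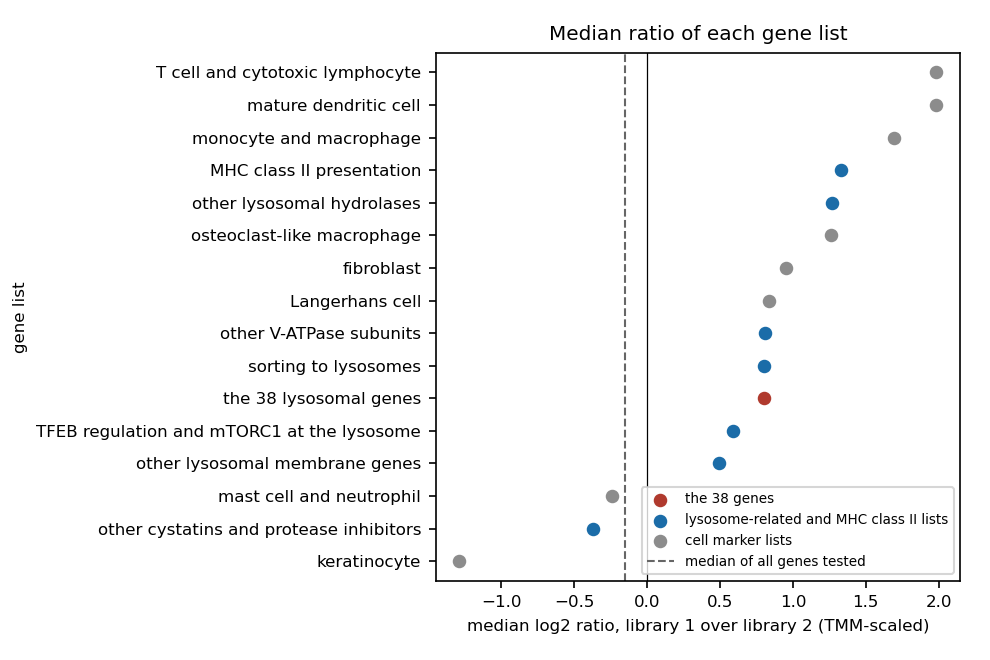
Median log2 ratio of library 1 over library 2 after TMM scaling for the 38 genes, for lysosome-related and MHC class II lists and for lists of cell markers; the dashed line is the median of all genes tested, -0.15. The list of placental cathepsins, which lay within background, is left out. The 38 genes at 0.80 lie between MHC class II genes at 1.33 and keratinocyte genes at -1.29.

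Markers of the cells in the sample also differed between the libraries, not all in the same direction. After TMM scaling all 10 MHC class II genes were at least 2-fold higher in library 1 (median 1.33). Of all genes tested 12.6% were, and of protein-coding genes above background 20.7%. The list was led by Cd74, the invariant chain that Ctss cleaves, at 4281 CPM per kb in library 1 and 2422 in library 2. By total counts Cd74 thus fell short of 2-fold. Langerhans cell genes had a median of 0.84, with Mfge8 at 1322 CPM per kb in library 1 and 451 in library 2, Runx3 with the largest ratio (2.08) and Cdh1 with the smallest (-0.22) of genes averaging 10 CPM or more, and Cd207 itself had 0.60. Their summed level was 9372 CPM in library 1 against 4890 in library 2. Mature dendritic cell genes had 1.98, with Ccl22 (3.66) and Marcksl1 (0.56) as the largest and smallest ratio at that level, and Cd83 at 303 CPM per kb in library 1 and 131 in library 2. Of 16 monocyte and macrophage genes 13 were above background, with a median of 1.69 and a summed level of 3464 CPM in library 1 against 2333 in library 2. The edgeR binomial test called 13 of the 16 higher and 3 lower in library 1. Of all genes tested it called 36.1% higher and 44.2% lower, and of protein-coding genes above background 65.7% and 22.0%. Ccr2 (3.32) and Cd163 (-2.48) had the largest and smallest ratio at a mean of 10 CPM or more, and Apoe, the highest per kb, had -0.10. The median of T cell genes was 1.98 and that of osteoclast-like genes 1.26. Among the T cell genes Cd3g had the largest ratio (2.51) and Thy1, the highest per kb, the smallest (-0.64) at a mean of 10 CPM or more. Keratinocyte genes had a median of -1.29, with 12 of 14 at least 2-fold lower in library 1. Of all genes tested 24.5% were, and of protein-coding genes above background 4.95%. Of 8 fibroblast genes 5 were above background in library 1 and 0 in library 2, so that none was above it in both. Their summed level was 119 CPM in library 1 against 53.4 in library 2. Of 10 mast cell and neutrophil genes 5 were above background, and Mcpt4 was at 0 in a library. Their sum was 332 CPM in library 1 against 632 in library 2. Most of it came from S100a9, at 182 CPM in library 1 and 425 in library 2, and S100a8, at 63.6 and 165 CPM. Csf3r went the other way, at 56.3 CPM in library 1 and 15.2 in library 2. Of the 8 genes tested, 2 were at least 2-fold higher in library 1 after TMM scaling and 0 lower by as much. The part of these cells in the differences between the lysosomal genes was not tested.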

How the data were processed

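RNA sequencing counts of 2 libraries from 1 group were used. The authors deposited raw counts for each Ensembl gene as whole numbers, and 1 row without an identifier that held the column totals was left out. Trimmomatic, HISAT2, StringTie, SAMtools and the build GRCm38 appear in the submitters' processing notes. The library kit was stranded per the labels; how counting used strand, and the annotation release, are not given there. Positions and exon lengths (union of exons) came from GENCODE M21 on GRCm38. Counts were scaled to CPM by the total of each library and divided by exon length. Intervals are exact 95% Poisson or binomial intervals; those of a ratio of ratios use the normal approximation on the log scale. They take counts as independent molecules, which could not be checked. A count of 0 allows up to 3 counts, equal to 0.0429 CPM in library 1 against 0.0710 in library 2.

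The libraries were compared in R 4.3.3 by edgeR 4.0.16, with its binomial test (no dispersion beyond counting), on genes that reached 1 CPM in either library. Scaling was by TMM, the prior count was 1 and Benjamini-Hochberg adjustment ran over all genes at 0.05. A quasi-likelihood test was not run, as 1 group leaves nothing to test. Nothing says that the samples came from separate animals. The p-values set the difference between these libraries against counting error only, and measure no spread between libraries or animals. The binomial test was checked on simulated data drawn with counting error alone. That check could not show how the test behaves where libraries differ by more than counting error. Promoters came from RefSeq (GRCm38.p6). Members and lists were chosen with earlier results of these data known. All members are named; of each other list the text draws on the 2 genes highest per kb and, at a mean of at least 10 CPM, those with the largest and smallest ratio, of which 1 is not reported here. Alternatives were DESeq2 1.42.0 size factors, total counts, other filters, a dispersion of 0.04, a prior count of 5, other background limits and background subtraction.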

Additional observations from a re-analysis of the deposited data

How the results depend on the processing

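The number of members above background was 33 to 35 with the 99th percentile, a floor of 1 CPM per kb, no length scaling or the principal transcript (a choice made after seeing the data), and 35 to 36 with either replicate left out. DESeq2 size factors, both other filters, a prior count of 5 and background subtraction reversed no log2 ratio of a member. With a dispersion of 0.04 the exact test called 17 members higher and 2 lower in library 1, which are the 19 that differ at least 2-fold. Over all genes that setting called 10204, against 24371. Total counts gave 22 called higher and 8 called lower, with 9 higher and 5 lower by 2-fold or more, and called genes split 24.1% higher in library 1, against 44.9% with TMM. They reversed Ctsl (-0.021), Ctsw (-0.026), Lamp1 (-0.020), Lamp2 (-0.026), Npc1 (-0.11), Tfeb (-0.078), Mcoln1 (-0.29), Atp6v1a (-0.34) and Atp6v1b2 (-0.0090). Scaling to Cd207, chosen after seeing the data, left 8 higher and 5 lower by 2-fold or more, and reversed Ctsl (-0.12), Ctsw (-0.12), Ctsd (-0.017), Lamp1 (-0.12), Lamp2 (-0.12), Npc1 (-0.21), Tfeb (-0.17), Mcoln1 (-0.38), Mcoln2 (-0.041), Atp6v1a (-0.44) and Atp6v1b2 (-0.11). Both settings subtract a constant from each ratio, so members near 0 change sign. The ratio between libraries has no value with a replicate left out. No paired analysis was possible because there is only 1 group. Ctse, Lamp3, Atp6v0d2, Ctsk and Ctsf lie near or within the olfactory receptor background, which limits what their levels show. The same limit holds for some members with positive ratios. In library 2 Ctso (1.91 CPM per kb), Tfeb (2.35) and Lipa (2.38) lay closer to the background limit of 1.58 than Ctsk (3.57).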
